A study of Homo sapiens with 6 samples.

Results

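The long non-coding RNAs (lncRNAs) described here were almost silent in HAP1 cells and were detected in all 3 libraries of their HELLS KO derivative. They were chosen on the measured counts themselves: a row of the count table of GENCODE type lncRNA was taken when its lowest level in the HELLS KO libraries was more than 4 times its highest level in the HAP1 libraries and each HELLS KO library held at least 10 counts. Levels for this choice were counts scaled to the library total (CPM). Of 13964 lncRNA rows, 1963 held 10 or more counts in every HELLS KO library, and 54 of these (2.75%) met the ratio. The named transcripts among the 54, LINC00665 and SNHG14, were left out with 4 other named lncRNAs that the choice excluded, which left 52. Because genotype chose them, the difference between genotypes is given for the 52 as a description, without a test.

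The study performed RNA-seq on HAP1, a near-haploid line derived from a chronic myelogenous leukemia, and on a HELLS KO line made from it. The parental cells were HAP1 clone C631 with an intact HELLS gene, the knockout carried a CRISPR-edited HELLS gene with a 1-base change, and both were under normal growth without a drug. Each genotype had 3 libraries of total RNA, described as biological replicates, and replicate 3 of both genotypes carried a batch label. The knockout is a clonal line, so the effect of the HELLS mutation and other properties of that clone cannot be told apart. Total counts were between 13641237 and 24400187 per library. HELLS RNA itself was not lost, with counts of 1444, 1488 and 3671 for HAP1 against 1410, 1375 and 2802 for HELLS KO, so RNA level does not check the genotype labels. Of the haematopoietic markers SPI1 and CEBPE had 0 counts in all 6 libraries, and the 15 markers summed to 44.2 to 56.1 CPM in HAP1 and 25 to 33.0 CPM in HELLS KO, a difference carried by KIT (26.9 and 3.54 CPM on average) and not by CEBPA (19.3 and 21.9 CPM).

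HELLS is a SNF2-family chromatin remodeller that assists DNA methyltransferases in reaching DNA packed in nucleosomes, and it is best known for keeping repeats and silent genes methylated. By ELISA, the study found global CpG methylation unchanged in the HAP1 knockout, a measure of the genome as a whole. A lncRNA is a spliced or unspliced transcript without a long open reading frame. Many lncRNAs are restricted to 1 tissue, and their promoters are frequently closed or methylated elsewhere. Some start back to back with a coding gene and share its promoter region with it.

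In HAP1 cells, 31 of the 52 had 0 counts in every library. The other 21 held a few reads, and the largest count of any member in a HAP1 library was 8. Over all 52, the summed counts of replicates 1 to 3 were 11, 30 and 56 for HAP1 against 3205, 3099 and 7977 for HELLS KO. In HELLS KO this was 0.0227%, 0.0209% and 0.0327% of the library, so the whole group is a small share of the RNA. A count of 0 allows up to 3 counts, or 0.123 to 0.220 CPM depending on the library, which covers counting error only. In bulk RNA, a change in the number of expressing cells and a change in RNA per cell cannot be told apart.

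The sequences from which these RNAs start are shown for the 3 highest by CPM: LINC00839 and LINC01029, which are intergenic, and ZNF667-AS1, which starts close to a coding gene on the other strand. Each is 300 bases of hg38, from 250 bases before to 50 bases after the annotated gene start, read along the strand of transcription, with every CG dinucleotide, the site of DNA methylation, in capitals. LINC00839 is shown from chr10:42475230-42475529 on the + strand, LINC01029 from chr18:77993682-77993981 on the − strand and ZNF667-AS1 from chr19:56477000-56477299 on the + strand.
LINC00839: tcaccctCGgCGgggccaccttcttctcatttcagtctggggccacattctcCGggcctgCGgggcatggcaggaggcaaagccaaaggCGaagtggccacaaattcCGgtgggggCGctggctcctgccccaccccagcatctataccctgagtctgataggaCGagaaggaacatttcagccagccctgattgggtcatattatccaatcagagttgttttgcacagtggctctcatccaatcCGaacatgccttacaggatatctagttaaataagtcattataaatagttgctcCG
LINC01029: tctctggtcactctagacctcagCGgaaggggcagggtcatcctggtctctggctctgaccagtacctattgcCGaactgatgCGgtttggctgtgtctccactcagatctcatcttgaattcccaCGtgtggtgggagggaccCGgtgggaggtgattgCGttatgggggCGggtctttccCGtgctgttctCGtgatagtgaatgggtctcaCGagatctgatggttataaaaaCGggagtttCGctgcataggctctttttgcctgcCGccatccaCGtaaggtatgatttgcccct
ZNF667-AS1: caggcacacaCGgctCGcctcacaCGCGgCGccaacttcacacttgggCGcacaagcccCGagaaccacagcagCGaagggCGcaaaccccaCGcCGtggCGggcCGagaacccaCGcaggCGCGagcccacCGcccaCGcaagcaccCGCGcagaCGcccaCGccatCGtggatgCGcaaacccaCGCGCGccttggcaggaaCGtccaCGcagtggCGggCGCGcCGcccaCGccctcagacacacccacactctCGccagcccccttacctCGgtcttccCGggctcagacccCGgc
The 3 windows hold 10, 14 and 38 CG dinucleotides, in that order.

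LINC00839, an intergenic RNA on chromosome 10 (42475480 to 42495337, + strand), was the most abundant of the 52. It had 0 counts in each HAP1 library and counts of 647, 550 and 1052 in HELLS KO, or 45.8, 37.0 and 43.1 CPM. Its mean of 42.0 ± 4.52 CPM (SD, n = 3) was at least 227-fold above the limit that 3 counts per library set in HAP1. LINC01029 on chromosome 18 (77970637 to 77993731, − strand) was next, with 0 counts in each HAP1 library and 24.1, 22.6 and 37.5 CPM in HELLS KO, at least 152-fold above the limit. Replicate 3 was the highest of its 3 libraries, whereas LINC00839 was highest in replicate 1. These 2 RNAs held 26.9% of all counts of the 52 in the HELLS KO libraries.

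ZNF667-AS1, the antisense partner of a zinc-finger gene and an RNA known to be silenced together with DNA methylation in many tumours, came next by CPM. It was not fully silent in HAP1, with 2, 2 and 1 counts, and reached 12.3, 10.8 and 12.0 CPM in HELLS KO. ENSG00000268119 on chromosome 19 had 1, 0 and 6 counts in HAP1 but 6.23, 8.41 and 17.0 CPM in HELLS KO. LINC01446 on chromosome 7 had 0 counts in HAP1 but 4.89, 7.67 and 16.8 CPM in HELLS KO. The last 2 differed by more than 2-fold between their own HELLS KO libraries, with the highest level in replicate 3, while ZNF667-AS1 hardly varied.

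The remaining RNAs among the 10 with the highest CPM each had 0 counts in all HAP1 libraries. LINC02864 had 5.60, 6.12 and 11.6 CPM in HELLS KO, ENSG00000189229 had 6.09, 4.78 and 11.9 CPM, and both were highest in replicate 3. LINC00667, which overlaps the zinc-finger gene ZBTB14 on the opposite strand, had 6.45, 6.93 and 9.14 CPM. ENSG00000267053, which overlaps LINC00665 on the opposite strand over 14.7% of its exonic bases, had 6.73, 5.72 and 7.17 CPM. The strand setting of the authors' counting was not given in the sources used here, and LINC00665 itself had 794, 807 and 1453 counts in HELLS KO, so reads of the pair may not be separated.

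**Figure D1:**
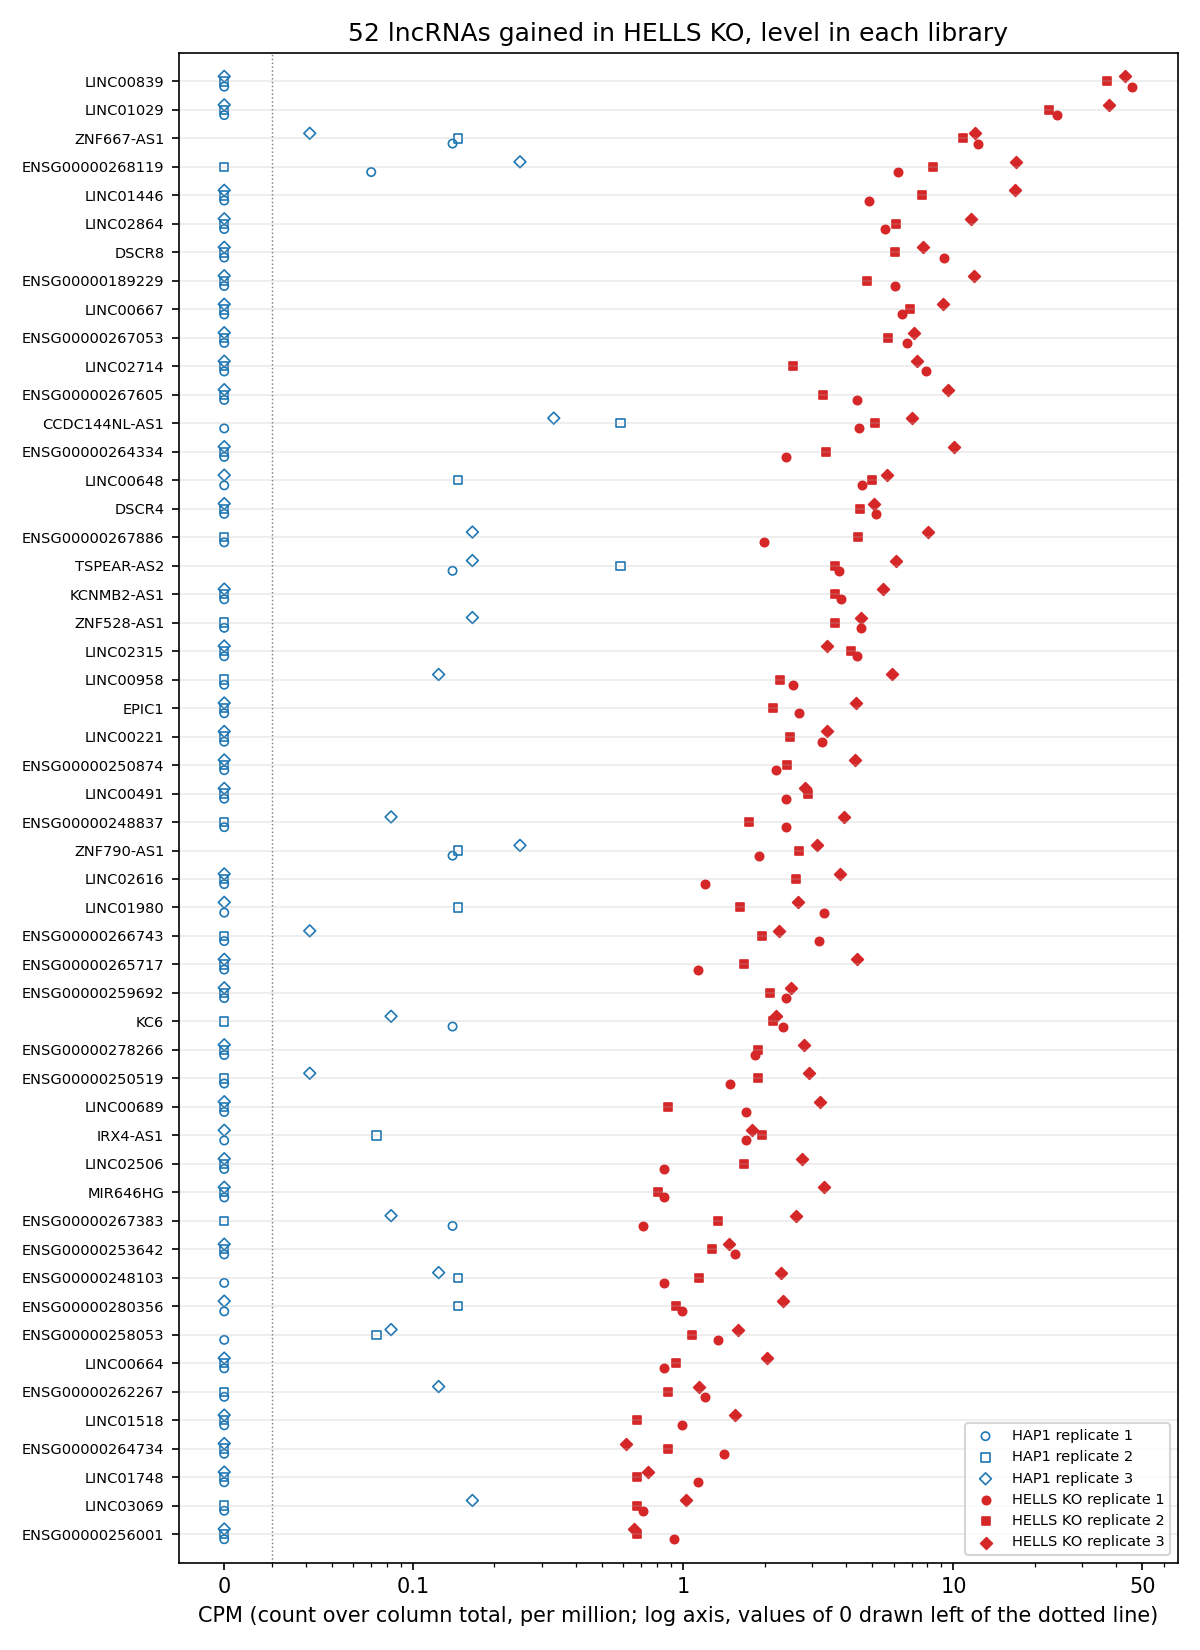
Level of each of the 52 lncRNAs in each of the 6 libraries, in CPM on a log axis with values of 0 drawn left of the dotted line; open blue symbols are HAP1 and filled red symbols HELLS KO, with 1 symbol shape per replicate. The genotypes do not overlap in any row because the choice required it, and LINC00839 at 37.0 to 45.8 CPM and LINC01029 at 22.6 to 37.5 CPM stand above the rest.

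DSCR8 and DSCR4 are a divergent pair from the Down syndrome critical region of chromosome 21, known mainly from placenta and testis, whose starts lie 91 bases apart. DSCR8 had 0 counts in HAP1 but 9.21, 6.06 and 7.70 CPM in HELLS KO. DSCR4 had 0 counts in HAP1 but 5.17, 4.51 and 5.08 CPM in HELLS KO. Both RNAs of the pair were thus detected in every HELLS KO library and in no HAP1 library. DSCR8 shares 15% of its exonic bases with the potassium channel gene KCNJ15 and DSCR4 15.6% with the channel gene KCNJ6, on the same strand. KCNJ6 had 0 counts except for 4 in HELLS KO replicate 3.

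Other RNAs with symbols of their own were lower. KCNMB2-AS1, which lies antisense to a subunit gene of a calcium-activated potassium channel, had 0 counts in HAP1 but 3.83, 3.63 and 5.49 CPM in HELLS KO. EPIC1, an RNA named for its epigenetic induction in tumours, had 0 counts in HAP1 but 2.69, 2.15 and 4.34 CPM in HELLS KO. MIR646HG, the host transcript of a microRNA, had 0 counts in HAP1 but 0.850, 0.808 and 3.32 CPM in HELLS KO, so its level rests largely on replicate 3. KC6 had 2, 0 and 2 counts in HAP1 but was the most even of all in HELLS KO, at 2.34, 2.15 and 2.21 CPM.

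CCDC144NL-AS1 and TSPEAR-AS2 had the most HAP1 reads. CCDC144NL-AS1 had 0, 8 and 8 counts in HAP1 but 4.46, 5.11 and 7.01 CPM in HELLS KO. TSPEAR-AS2 had 2, 8 and 4 counts in HAP1 but 3.75, 3.63 and 6.15 CPM in HELLS KO. ZNF528-AS1, ZNF790-AS1 and IRX4-AS1, which are described with their neighbours below, complete the 12 with a symbol other than a LINC or Ensembl name. Of the rest, 19 have LINC symbols and 21 carry only an Ensembl identifier.

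Near the limit of the choice, the counts were small. LINC03069 just met the ratio, with 0, 0 and 4 counts in HAP1 but 10, 10 and 25 in HELLS KO. ENSG00000267383 had 2, 0 and 2 counts against 10, 20 and 64, and ENSG00000248103 had 0, 2 and 3 against 12, 17 and 56. Just outside it lay ENSG00000255843 with 2, 2 and 4 counts against 10, 10 and 16, CARMAL with 0, 3 and 4 against 15, 12 and 36, and TSPEAR-AS1 with 4, 10 and 3 against 42, 36 and 65. The ratio thus falls among RNAs that differ by only a few HAP1 reads from each other.

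Per kilobase of gene length, the level of the 52 in HELLS KO lay in the range of other lncRNAs. Their median was 1.86 FPKM (the authors' values, scaled to gene length and depth), with quartiles of 1.00 and 2.69 FPKM and a range of 0.132 to 17.7 FPKM. The 1907 other lncRNAs with 10 or more counts in each HELLS KO library had a median of 2.22 FPKM, and the 13213 coding genes with as many counts had a median of 11.4 FPKM. By these values 21 of the 52 lay above the median of the other lncRNAs, and only LINC00839 and LINC01029 lay above that of coding genes. Within the 52, 6 reached 5 FPKM, 33 were between 1 and 5 FPKM and 13 were under 1 FPKM.

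LINC00839 led at 17.7 ± 1.43 FPKM (SD, n = 3), followed by LINC01029 at 13.2 ± 3.92 FPKM. The RNAs ranked 3 to 8, ENSG00000264334, LINC02315, ENSG00000266743, DSCR8, ENSG00000267886 and IRX4-AS1, had means of 6.62, 5.65, 5.21, 5.11, 4.95 and 4.23 FPKM. In that order each differed from the next by less than the larger SD of the pair, which for ENSG00000264334 was 5.24 FPKM. ENSG00000265717, ZNF667-AS1, ENSG00000259692, ENSG00000250519, LINC01446, LINC01980 and ENSG00000248103 completed the first 15, at 3.98 down to 2.58 FPKM. Short transcripts rank higher on this scale than by CPM: IRX4-AS1 had a mean of only 1.82 CPM.

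**Figure D2:**
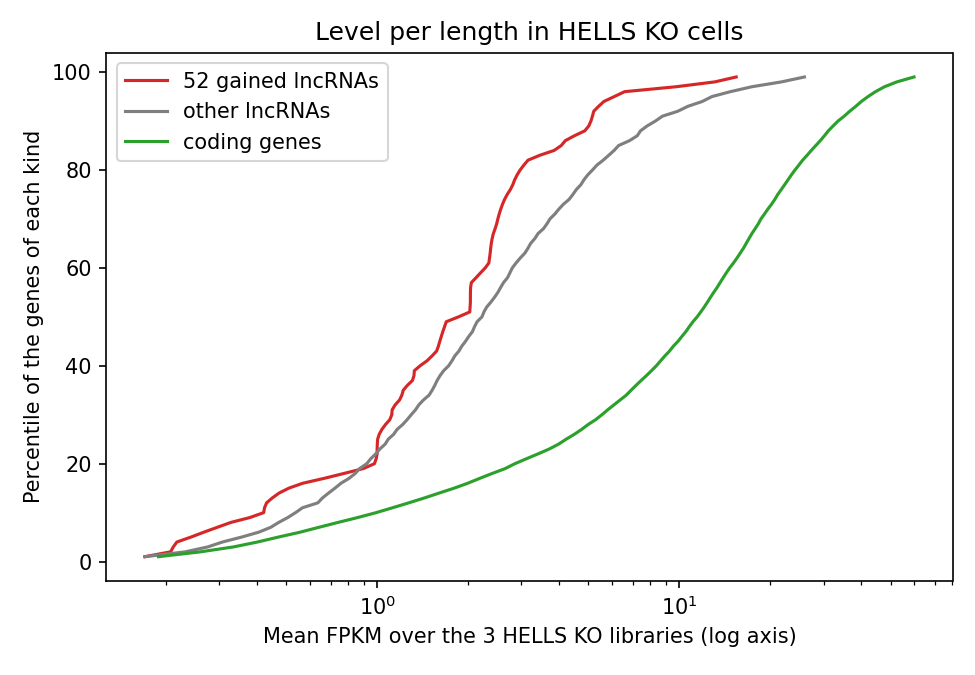
Percentile curves of the mean level per gene length over the 3 HELLS KO libraries (FPKM, log axis) for the 52 lncRNAs in red, the 1907 other lncRNAs in grey and 13213 coding genes in green, each with 10 or more counts in every HELLS KO library. The red curve runs close to the grey one, with medians of 1.86 and 2.22 FPKM, and far to the left of the green one at 11.4 FPKM.

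The 52 lay away from coding genes. Against protein-coding genes of the GENCODE release 44 annotation, 36 (69.2%) were intergenic, compared with 22.1% of the other lncRNAs. Head to head here means a start within 2 kb of a coding gene's start on the other strand, whether or not the genes overlap. This held for 3 of the 52 (5.77%) and 39.2% of the other lncRNAs. The 3 were DSCR8 with KCNJ6 at 106 bases, ZNF667-AS1 with ZNF667 at 815 bases and ZNF528-AS1 with ZNF528 at 58 bases. ZNF667-AS1 starts inside ZNF667 and overlaps it, while DSCR8 and ZNF528-AS1 start outside their partners. Among RNAs not head to head, overlap on the opposite strand was found for 10 (19.2%, against 28.1%) and on the same strand for 3 (5.77%, against 10.6%). The median distance to the nearest coding gene was 64.2 kb, while the median of the other lncRNAs was 0 kb because most overlap one. No coding gene lay within 100 kb of 22 of the 52 (42.3%), compared with 52 of the 1907 others (2.73%).

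Among those over 100 kb from any coding gene were LINC02506, LINC02616 and ENSG00000248837 on chromosome 4, LINC02714 on chromosome 11, LINC00221 on chromosome 14, ENSG00000262267 on chromosome 16 and ENSG00000280356 on chromosome 22. LINC00221, 952237 bases from the nearest coding gene, had 0 counts in HAP1 but 3.26, 2.49 and 3.40 CPM in HELLS KO. LINC02714, 323354 bases from one, had 0 counts in HAP1 but 7.93, 2.56 and 7.34 CPM in HELLS KO, where replicate 2 was the low library. LINC00958, 16804 bases from the transcription factor gene TEAD1, had 0, 0 and 3 counts in HAP1 but 2.55, 2.29 and 5.94 CPM in HELLS KO. LINC00664, which shares 7.95% of its exonic bases with ENSG00000269237 and ZNF429 on its own strand, had 0 counts in HAP1 but 0.850, 0.942 and 2.05 CPM in HELLS KO. These RNAs thus differed in level and in which library was highest.

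**Figure D3:**
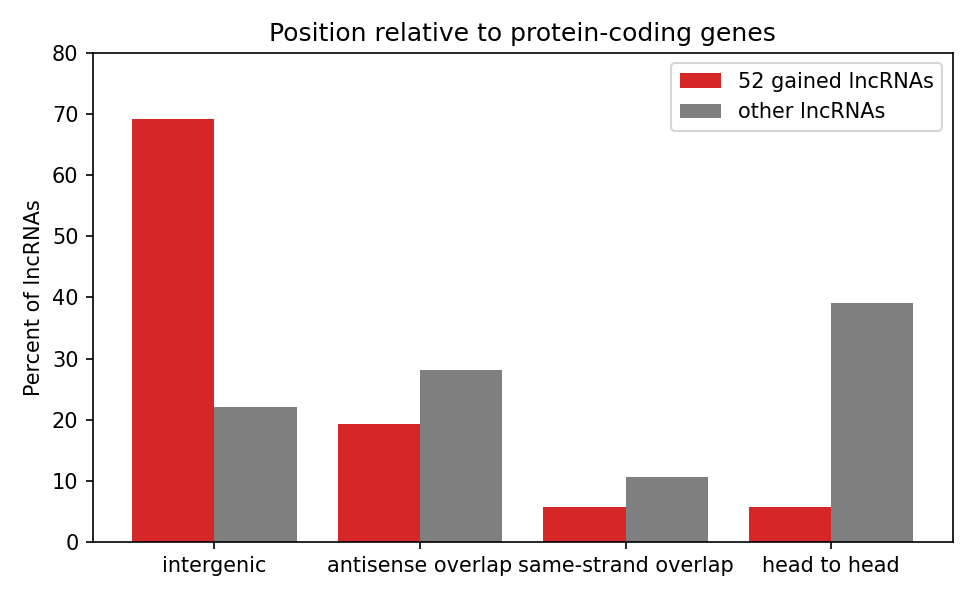
Share of the 52 gained lncRNAs (red) and of the 1907 other lncRNAs with 10 or more counts in each HELLS KO library (grey) in each position relative to protein-coding genes. Intergenic RNAs are 69.2% of the red set and 22.1% of the grey set, and head-to-head RNAs 5.77% and 39.2%.

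The 52 fell on all chromosomes other than 2, 6, 9, 13, X and Y, and 2 chromosomes held many. Chromosome 19 carried 9 (17.3%, against 6.55% of the other lncRNAs) and chromosome 18 carried 8 (15.4%, against 2.10%). Of the 8 on chromosome 18, 7 lay over 100 kb from any coding gene, including LINC01029, LINC02864 and KC6. The other genes tested on chromosome 18 had a median log2 fold change of 0.01, and those on chromosome 19 of −0.01, so the rest of both chromosomes was centred near 0. Joined within 100 kb, the 52 formed 47 loci. Besides DSCR4 and DSCR8, ENSG00000256001 and ENSG00000278266 start 617 bases apart and diverge, and ENSG00000264334 overlaps LINC01029 on the same strand.

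Several intergenic RNAs differed in how evenly the 3 HELLS KO libraries gave them. LINC00491 had 0 counts in HAP1 but 2.41, 2.89 and 2.83 CPM in HELLS KO. LINC02315 had 0 counts in HAP1 but 4.39, 4.17 and 3.40 CPM in HELLS KO, and LINC00648 had 0, 2 and 0 counts in HAP1 but 4.60, 4.98 and 5.66 CPM. These 3 varied little. ENSG00000250874 had 0 counts in HAP1 but 2.20, 2.42 and 4.30 CPM in HELLS KO and was highest in replicate 3. ENSG00000258053, with 0, 1 and 2 counts in HAP1 but 19, 16 and 39 in HELLS KO, and LINC01748, with 0 in HAP1 and 16, 10 and 18 in HELLS KO, were among the lowest by CPM. By FPKM, ENSG00000258053 was above the median of the 52, at 2.34 FPKM.

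In ENSG00000267053 and ENSG00000267605 on chromosome 19, 67.5% and 72.8% of the 31-base stretches recur in other genes, the only 2 of the 52 above 50%, and the part of such reads in their counts was not tested.

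The starts were less rich in CG than those of other lncRNAs. The observed over expected CG ratio in the 300-base window had a median of 0.467 in the 52 and 0.602 in the others, and the GC content 54.2% and 58.3%. Windows with a ratio over 0.6 and a GC content over 50% were found for 17 of the 52 (32.7%) and 46.9% of the others, and in a 1500-base window for 12 (23.1%) and 43.8%. By position, the median ratio was 0.400 for the intergenic RNAs of the 52 and 0.873 for their 3 head-to-head RNAs. The other lncRNAs were not split by position, so lower CG and position away from coding genes cannot be told apart here. The annotated start may differ from the model the authors counted, since 11 of the 52 have the same gene version in both and the authors' length was at the median 0.663 of the annotated one.

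Coding genes near the 52 were tested in the fit across all genes, since their values had no part in the choice. Of 17925 tested genes, edgeR's quasi-likelihood test called 269 higher (1.5%) and 129 lower (0.72%) in HELLS KO, where a call needed an adjusted p below 0.05 and a change of 1 or more on the log2 scale. Within 100 kb of the 52 lay 60 tested coding genes, of which 11 were called higher (18.3%) and 0 lower, with a median log2 fold change of 0.12. Within 100 kb of the other tested lncRNAs, 31 of 5639 coding genes were called higher (0.550%) and 30 lower (0.532%). Of these 11, 10 lie on chromosome 19, several of them in the same clusters, so they are not independent of each other.

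The called genes were zinc-finger genes, many of which encode repressors that bind retrotransposons, and 1 homeobox gene. Of 38 tested zinc-finger genes within 100 kb, 10 were called higher (26.3%), compared with 36 of 472 (7.63%) farther away. Of the 22 other coding genes within 100 kb, 1 was called, IRX4, compared with 135 of 13068 (1.03%) farther away. The 11 genes lay by 7 of the 52 RNAs. Another 17 RNAs had tested coding neighbours of which none was called, and 28 had no tested coding gene within 100 kb.

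IRX4, a homeobox transcription factor of the heart ventricle, overlaps IRX4-AS1 on chromosome 5 (1883315 to 1884758, + strand). IRX4-AS1 had 0, 1 and 0 counts in HAP1 but 1.70, 1.95 and 1.80 CPM in HELLS KO. IRX4 had 26, 36 and 37 counts in HAP1 but 1068, 874 and 1047 in HELLS KO, and its mean went from 2 ± 0.574 to 59.1 ± 16.4 CPM (SD, n = 3 each). Its log2 fold change was 4.91 ± 0.31 (SE), with an adjusted p of 3.8e-04 by edgeR's quasi-likelihood test. The gene was thus detected at a low level in every HAP1 library, where its antisense RNA was near the limit of counting. In HELLS KO the gene was far above that RNA by CPM, which does not correct for length.

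ZNF528-AS1 lies by 3 called genes. It had 0, 0 and 4 counts in HAP1 but 4.53, 3.63 and 4.55 CPM in HELLS KO. ZNF528, whose start is 58 bases away on the other strand, had 0, 0 and 2 counts in HAP1 but 123, 120 and 425 in HELLS KO (edgeR adjusted p = 0.0020). ZNF880, at 3041 bases, had 0 counts in HAP1 but 217, 221 and 564 in HELLS KO (edgeR adjusted p = 0.0015). The RNA and both genes were thus detected together. ZNF534, at 31357 bases, had 0, 0 and 1 counts in HAP1 but 15, 21 and 75 in HELLS KO (edgeR adjusted p = 0.013), and it no longer passed without HAP1 replicate 1 (0.057) or without HELLS KO replicate 2 (0.061). ZNF610 and ZNF578, at 21058 and 55762 bases, were not called by edgeR (adjusted p = 0.12 and 0.14), and passed in edgeR with the replicate number as a block (adjusted p = 0.029 and 0.0099) and in DESeq2 without it (adjusted p = 0.025 and 0.011).

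ZNF667, back to back with ZNF667-AS1, had 0, 5 and 2 counts in HAP1 but 100, 65 and 184 in HELLS KO, for a log2 fold change of 5.45 ± 0.70 (SE; edgeR adjusted p = 0.0090). The RNA, at a mean of 11.7 CPM in HELLS KO, was above the gene at 6.33 CPM. ZNF829 and ZNF568 lie within 100 kb of ZNF790-AS1, which had 2, 2 and 6 counts in HAP1 but 1.91, 2.69 and 3.11 CPM in HELLS KO. ZNF829 had 3, 0 and 8 counts in HAP1 but 132, 112 and 347 in HELLS KO (edgeR adjusted p = 0.0048). ZNF568, already present in HAP1 with 9, 8 and 22 counts, had 158, 153 and 399 in HELLS KO (edgeR adjusted p = 0.0014). ZNF790, which this RNA overlaps, was not called.

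The remaining called neighbours lay by RNAs known only by identifier. ZFP82, 61844 bases from ENSG00000267053, had 0 counts in HAP1 but 82, 59 and 213 in HELLS KO (edgeR adjusted p = 0.0064). ZNF486 and ZNF90 both overlap ENSG00000267383, a weak RNA that spans several genes. ZNF486 had 18, 6 and 36 counts in HAP1 but 172, 184 and 511 in HELLS KO (edgeR adjusted p = 0.0068). ZNF90 had 14, 14 and 70 counts against 106, 160 and 500 (edgeR adjusted p = 0.046). The call on ZNF90 was lost without any 1 of HAP1 replicates 1 and 2 and HELLS KO replicates 1, 2 and 3, with adjusted p between 0.065 and 0.15. ZNF585B, 17354 bases from ENSG00000267605, had 13, 19 and 16 counts against 78, 78 and 191 (edgeR adjusted p = 0.011), and the call was lost without HAP1 replicate 1 or HELLS KO replicate 2 (adjusted p = 0.055 for each).

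Of the 49 tested coding neighbours that were not called, 41 had a log2 fold change within 0.5 of 0. The largest differences among the rest were in zinc-finger genes. ZNF728, 72025 bases from ENSG00000267886, had 0 counts in HAP1 but 12, 34 and 143 in HELLS KO, with an edgeR adjusted p of 0.070 that became 0.0022 with the replicate block, and it also passed in DESeq2 without the block. ZNF730, whose start lies 9 bases from that of ENSG00000267886 on the same strand, went from 4.23 to 10.8 CPM (edgeR adjusted p = 0.25, 0.0042 with the block, and 0.020 in DESeq2 without it). DUSP26, a phosphatase gene 4833 bases from ENSG00000253642, was lower, at 36, 35 and 79 counts against 16, 12 and 33, and passed in edgeR with the block or a batch term but not without either (adjusted p = 0.14) or in DESeq2 (0.097). With the block, 15 neighbours were called higher and 1 lower, and DESeq2 without it called 15 and 0.

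Reads could not always be assigned to 1 gene. Of the 52, 22 share exonic bases with another annotated gene, 18 on the opposite strand and 6 on the same strand, and 8 share over 10%. LINC03069 has the largest overlap, 37.6% on the opposite strand, followed by LINC00689 with VIPR2 (22.1%) and LINC00667 with ZBTB14 and other RNAs (21.9%). ENSG00000267886 shares 18.4% with ZNF730 on its own strand. The part of such shared reads in the levels was not tested.

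The 3 HELLS KO libraries did not give the 52 evenly. Replicate 3, which carries the batch label, was the highest of the 3 for 36 of the 52 (69.2%), compared with 42.9% of the other lncRNAs. The level in replicate 3 over the mean of replicates 1 and 2 had a median of 1.48 in the 52 and 1.06 in the other lncRNAs. In 15 of the 52 (28.8%) it exceeded 2, compared with 3.78% of the others. It ranged from 0.536 for ENSG00000264734 to 4.01 for MIR646HG, with 3.48 for ENSG00000264334, 3.11 for ENSG00000265717 and 2.68 for LINC01446. In RNAs with 10 to 30 counts in replicates 1 and 2, the median was 1.80 for 20 of the 52 and 1.11 for 744 others. With 30 to 100 counts it was 1.40 for 27 of the 52 and 1.05 for 674 others, and with 100 to 1000 counts it was 1.04 for 5 of the 52 and 1.04 for 470 others. The 160 coding genes that met the same ratio and count limits had a median of 1.5. The part of the batch in these levels was not tested.

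**Figure D4:**
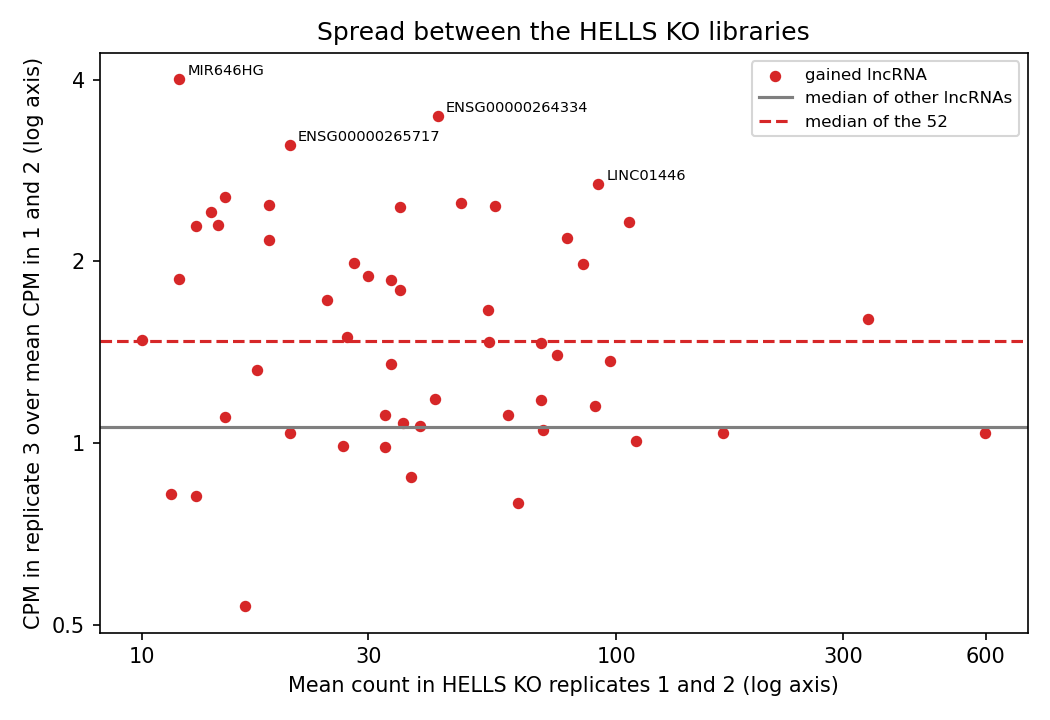
Level in HELLS KO replicate 3 over the mean of replicates 1 and 2 (ratio of CPM, log axis) for each of the 52 lncRNAs, against its mean count in replicates 1 and 2 (log axis). The dashed line is their median of 1.48 and the solid line the median of 1.06 over other lncRNAs; MIR646HG at 4.01 is the highest.

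Fewer lncRNAs met the limits in the other direction. With the genotypes exchanged, 6 of the 13964 lncRNA rows met the same limits. They were LINC02582, ENSG00000260588, LINC00462, WDR86-AS1, LINC00649 and ENSG00000222012. From replicates 1 and 2 alone, 14 met them, against 54 in the first direction, so the number depends on replicate 3. LINC02582 had 33, 35 and 128 counts in HAP1 but 0 in each HELLS KO library, and it lies 60461 bases from LINC02864, which had 0 counts in HAP1 but 79, 91 and 283 in HELLS KO. These neighbours on chromosome 18 thus had opposite patterns. Of the 2336 tested lncRNAs other than the 52, edgeR called 7 higher and 11 lower. The 52 were taken out of this count while lost RNAs such as LINC02582 were kept, so it does not compare the directions.

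Lists of other genes were read from the same fit. Of 36 tested well-known lncRNAs, HOTAIR, a regulator of HOX genes, was called higher (2.71 ± 0.458 to 7.27 ± 1.03 CPM, SD, n = 3 each; edgeR adjusted p = 0.038), and 0 were called lower. That call was lost when any 1 library was left out. No gene was called among 29 for nuclear RNA turnover or 21 for DNA methylation, where edgeR gave 0 with an unadjusted p under 0.05 in either list, and DESeq2 called 0. Over all tested genes, edgeR called 1.5% higher and 0.72% lower. At that share, lists of this size can hold 0 called genes, so their count is not a result about these factors. Of the markers, KIT (haematopoietic), DAZL (germ cell) and LIN28A (pluripotent) were called lower (edgeR adjusted p = 0.015, 0.013 and 0.049), and 0 were called higher. Only 4 haematopoietic, 3 germ cell and 5 pluripotent markers had enough counts to be tested. The 13 testis germ cell markers summed to 42.1 to 51.1 CPM in HAP1 and 21.1 to 25.5 CPM in HELLS KO, with PRM1, PRM2, SPACA1 and AKAP4 at 0. The fall in this sum was carried by DAZL (41.6 and 17.5 CPM on average). ACRV1 (1.85 and 2.34 CPM) and SYCP3 (1.68 and 2.34 CPM) had higher means in HELLS KO. The pluripotent markers summed to 443 to 503 and 367 to 431 CPM. Of them LIN28A fell most (61.9 and 11.2 CPM on average), and TDGF1 was lower without a call (9.14 and 3.05 CPM). POU5F1, SOX2 and DPPA4 changed little, with log2 fold changes of −0.09, −0.09 and −0.03. The melanocyte markers summed to 6.42 to 7.33 and 5.32 to 8.07 CPM, and the neural markers to 19.9 to 22.4 and 22.9 to 26.9 CPM. The neural sum was thus the only marker sum with higher values in every HELLS KO library, and 0 of its 6 tested genes were called. That rise was carried by MAP2 (7.66 and 11.1 CPM on average) and SYT1 (2.61 and 4.71 CPM). RBFOX3, TUBB3, SNAP25, GFAP and STMN2 had lower means in HELLS KO. The median log2 fold change of the tested neural markers was −0.16. The part of these cell-type markers in the levels of the 52 was not tested.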

How the data were processed

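RNA-seq libraries of HAP1 and HELLS KO cells, 3 each, were made by the authors with a directional kit. Per the labels, reads were aligned with STAR 2.7.3a to hg38 and counted per gene with featureCounts 2.0.6, and per the study's methods duplicates and reads of low mapping quality were removed, which takes reads from repeats. The annotation release and strand setting are not given in the sources used here. The authors deposited raw counts and FPKM values, which were recomputed from the counts within 0.1% and carry no further measurement. Libraries were grouped by genotype from the sample records. Of 60483 identifiers, 56321 were matched to GENCODE release 44 on GRCh38, which gave types, symbols and positions, and windows were read from hg38.

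The members and lists were chosen with earlier results of these data known. Some start sequences are not reported here. Named were the 15 highest by FPKM, the 10 highest by CPM, RNAs with a called coding neighbour, RNAs with symbols of their own, the 3 on each side of the ratio, called neighbours and called list genes; other RNAs were named in groups or chosen after their values were seen. Counts were fitted over all genes with edgeR 4.0.16 in R 4.3.3 (filterByExpr, TMM, quasi-likelihood test, Benjamini-Hochberg adjustment), tested on simulated data; 47 of the 52 passed the filter. Tables used Python 3.11.15. Alternatives were DESeq2 1.42.0, upper-quartile scaling, other filters, a replicate block, a batch term, each library left out, other ratios, count minimums and windows. Deviations of same-numbered replicates correlated at 0.42, 0.20 and 0.78, so the numbers were treated as pairs in the block, although HAP1 replicate 2 correlated more with HELLS KO replicate 1 (0.59) and HAP1 replicate 1 with HELLS KO replicate 2 at 0.33, so the pairing is clear only for replicate 3. No 2 libraries were copies (chi-square per gene of at least 2.34). P-values measure the spread between these libraries.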

Additional observations from a re-analysis of the deposited data

How the results depend on the processing

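The choice gave 53 to 64 lncRNAs when 1 library was left out, and 27 with a minimum of 30 counts. In the other direction it gave 7 to 10 with 1 library left out (10 without HAP1 replicate 3), 12 at a ratio of 2, 3 at a ratio of 8, 3 with 30 counts and 14 from replicates 1 and 2 alone. Over all genes, DESeq2 called 424 higher and 243 lower, edgeR without a filter 415 and 200, and edgeR on genes with at least 10 counts in every library 29 and 48, where fewer genes were tested. With the replicate block 363 were higher and 267 lower, with a batch term 285 were lower, and replicates 1 and 2 alone gave 219 lower. Leaving out 1 library gave 112 to 273 higher and 40 to 176 lower: the lowest came when HELLS KO replicate 2 was left out (112 and 40), followed by HELLS KO replicate 1 (160 and 62), HAP1 replicate 1 (173 and 69) and, for lower genes, HAP1 replicate 2 (84), and the cause was not tested. Of the coding neighbours called higher, there were 8 to 13 with 1 library left out, 15 with the block and 2 at 10 counts in every library. By distance, 7 of 25 tested were called higher within 20 kb and 21 of 220 within 500 kb. Lower neighbours were 1 with the block, 1 with a batch term and 1 within 500 kb. The 11 named neighbours kept their direction in all 135 values under the alternatives and passed the cut-offs in 124. The CG ratio was 0.453 and 0.572 (the 52 and other lncRNAs) in the wider window and 0.462 and 0.612 at canonical starts. The median level without 1 HELLS KO library was 1.53 to 2.05 FPKM for the 52 and 2.14 to 2.28 FPKM for the others. The listed genes KIT and DAZL lost their calls without HELLS KO replicate 2, KIT also without its replicate 1 and DAZL also when HAP1 replicate 1 was left out. LIN28A lost its call without any 1 library other than HELLS KO replicate 3. Depth limits the lower end: 20 of the 52 had 10 to 30 counts in HELLS KO replicates 1 and 2.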

Other observations

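Other non-coding genes near the 52 lncRNAs were read from the same fit. Of 12 tested lncRNAs within 100 kb that are not among the 52, edgeR called 1 higher and 1 lower, with a median log2 fold change of −0.18. The higher one was LINC00665, which met the limits of the choice and was left out by name. The lower one was LINC02582, which met the limits with the genotypes exchanged. Both calls thus follow from those limits. Over all 2336 tested lncRNAs other than the 52, 7 (0.300%) were called higher and 11 lower. Of 11 tested pseudogenes within 100 kb, edgeR called 3 higher and 0 lower, compared with 32 higher and 2 lower among 1419 tested pseudogenes. CCNYL2, a pseudogene 21095 bases from LINC00839, had 0, 0 and 2 counts in HAP1 but 89, 69 and 221 in HELLS KO (edgeR adjusted p = 0.0024). ZNF542P, 99278 bases from ZNF667-AS1, had 9, 1 and 11 counts in HAP1 but 320, 279 and 700 in HELLS KO (edgeR adjusted p = 0.0015). GTF2IP6, 19586 bases from ENSG00000264734, had 0 counts in HAP1 but 12, 14 and 25 in HELLS KO (edgeR adjusted p = 0.020).

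The limits that chose the 52 were read over the genes of each type with 10 or more counts in each HELLS KO library. They were met by 160 of 13213 coding genes (1.21%) and 54 of 1963 lncRNAs (2.75%). Pseudogene types differed, with 19 of 250 transcribed unprocessed (7.60%) but 2 of 620 processed ones (0.323%). Between them lay 4 of 87 unprocessed (4.60%) and 4 of 97 transcribed processed pseudogenes (4.12%). A further 14 lncRNAs met the ratio with a lowest HELLS KO count of 7 to 9, among them LINC00526 with 0 counts in HAP1 but 15, 9 and 13 in HELLS KO, an RNA that overlaps LINC00667.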
